A study of Oryza sativa with 6 samples.

Results

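Prolamins and the 19 kDa globulin are storage proteins of the rice grain, and their transcripts were measured by RNA-seq in developing seeds. The set held every row of the deposited table with the word prolamin in its description, which gave 7 rows, and the row at LOC_Os05g41970, the alpha-globulin gene Glb1, described there as 19 kDa globulin. That made 8 rows of 91080 in all. The rule read only names and descriptions, so prolamin genes that the table lists without a description were not reached by it. RNA came from rice (Oryza sativa) seeds at 15 DAF, the filling stage, from paddy-grown plants of near-isogenic lines. NIL-gaf1, whose genotype is given as mutant, had 3 libraries, and NIL-GAF1, given as wild type, had 3. Such lines are alike over most of the genome except for a selected region, which the labels do not locate. No label says that libraries come from different plants, and p-values therefore describe only how far these samples spread, which could be technical.

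Prolamins are alcohol-soluble proteins made on the rough endoplasmic reticulum (ER) of the starchy endosperm, where they stay and aggregate into ER-derived protein bodies. Glutelins, the major storage proteins of rice, and Glb1 leave the ER and are deposited in the protein storage vacuole. Among prolamins the small sulfur-rich class is held apart from the others by its high share of cysteine and methionine.

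Total counts ranged from 21200210 to 25402680 in the mutant libraries and from 17236796 to 22454000 in the wild-type libraries. Levels are given as normalized CPM, counts per library size (CPM) scaled by TMM (a factor set by the typical gene of each library). A count of 0 allows up to 3 counts, which is 0.0752 to 0.102 normalized CPM in the mutant and 0.205 to 0.243 in wild type, for counting error only. TMM factors were 1.16 to 1.88 in the mutant and 0.627 to 0.716 in wild type, and over all tested features the median log2 fold change, 0.06 with TMM, became 1.27 when scaling by total counts. Values of a line are listed in the order of libraries 1, 2 and 3. Fold changes are mutant over wild type, tested with edgeR's quasi-likelihood test on 22937 features, with Benjamini-Hochberg adjustment over all of them and a threshold of 0.05.

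The 5 prolamin rows and Glb1 with enough counts to test lay lower in every mutant library than in any wild-type library. PROLM7 was 31-fold lower and passed the test, while the other 5 rows, fitted at 6.94-fold to 36.2-fold lower, did not. The spread between the mutant libraries was wide: at each of the 6 rows mutant library 3 was highest and mutant library 1 lowest. In bulk tissue, fewer endosperm cells and less storage RNA per cell cannot be told apart.

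**Figure D1:**
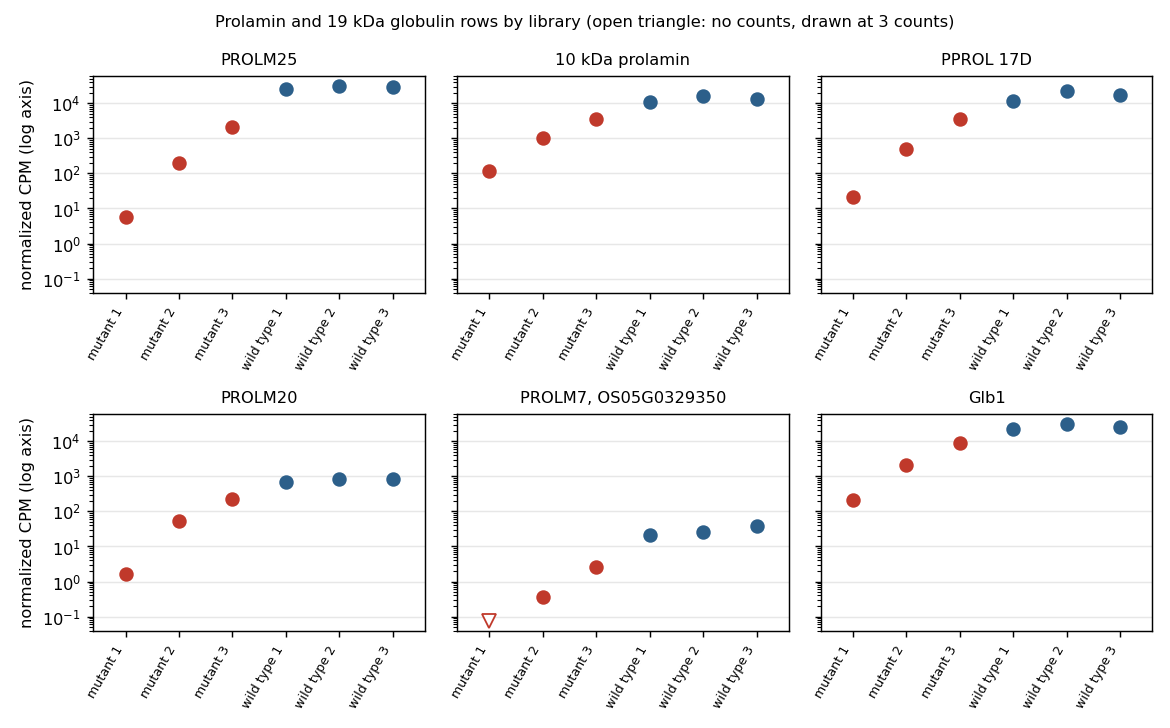
Normalized CPM (log axis) of the 6 tested rows in each mutant library (red, left) and wild-type library (blue, right), 1 point per library. In every panel the 3 mutant points lie below the 3 wild-type points, and the open triangle marks mutant library 1, which had no counts of the PROLM7 row and is drawn at 3 counts.

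PROLM25, described as 13 kDa prolamin C (OS07G0206400, LOC_Os07g10570, chromosome 7, 5736877 to 5737483), was the most abundant of these prolamin rows in wild-type seeds. Its coordinates, and those given for other rows, are the table's, on a build that the sources used here do not give. PROLM25 was at 5.62, 201 and 2175.5 normalized CPM in the mutant libraries, against 25187, 31819 and 29287 in the wild-type libraries. The wild-type libraries lay close together, whereas the mutant libraries were spread far more widely and none reached the wild-type values. The means were 794 ± 1200.5 in the mutant and 28764 ± 3347 in wild type (SD, n = 3 each), and the log2 fold change was -5.18 (SE 1.77, edgeR adjusted p = 0.057), which did not pass. Taken one by one, the mutant libraries held 0.0195%, 0.698% and 7.56% of the wild-type mean.

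The 10 kDa prolamin (OS03G0766100, chromosome 3, 31729638 to 31730211) belongs to the sulfur-rich class. It was at 119.9, 996 and 3494 normalized CPM in the mutant libraries, against 11172, 16022 and 13086 in the wild-type libraries. The lines did not overlap, but each mutant library kept a larger part of the wild-type mean than it did of PROLM25, at 0.893%, 7.42% and 26.0%. The means were 1537 ± 1751 in the mutant and 13427 ± 2443 in wild type (SD, n = 3 each), with a log2 fold change of -3.13 (SE 1.08, edgeR adjusted p = 0.059), which did not pass. The row lies inside the span of a second row, OS03G0766000 at LOC_Os03g55730, and no source used here says whether counting used strand, so reads of the overlap could be split between these rows. The second row had 701, 632 and 542 counts in the mutant libraries, against 214, 204 and 258 in the wild-type libraries. The 10 kDa prolamin had 4782, 37667 and 102709, against 137810, 197985 and 191534.

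PPROL 17D (OS12G0269200, LOC_Os12g16890, chromosome 12, 9688988 to 9689683) is described only as a prolamin. It was at 20.7, 513 and 3594 normalized CPM in the mutant libraries, against 11279, 22371 and 17444 in the wild-type libraries. All mutant values were lower, and wild-type library 1 was the lowest of its line. Its log2 fold change, -3.63 (SE 1.47), was not called (edgeR adjusted p = 0.095). PROLM20, described as prolamin PPROL 14P (OS07G0219300, LOC_Os07g11910, chromosome 7, 6611130 to 6611756), was far less abundant. Its values were 1.60, 53.0 and 231 normalized CPM in the mutant libraries, against 706, 820.4 and 822 in the wild-type libraries. The lines again stood apart, with 0.205%, 6.77% and 29.5% of the wild-type mean left in the mutant libraries. The log2 fold change was -3.04 (SE 1.24) and did not pass (edgeR adjusted p = 0.096).

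PROLM7, described as prolamin PPROL 14E, has 3 rows in the table within 5.14 kb of chromosome 5. They carry the same symbol and description, and if their sequences are alike they can share reads, so the values of each row are uncertain. OS05G0329350 (15343298 to 15343900) had 0, 14 and 76 counts in the mutant libraries, against 261, 318 and 577 in the wild-type libraries. The lines did not overlap, and the log2 fold change of -4.95 (SE 0.99) passed (edgeR adjusted p = 0.008). It also passed with each library left out in turn, with a log2 fold change of -7.30 without mutant library 3. The PROLM7 row OS05G0329100 (LOC_Os05g26386, 15338156 to 15338778) had 0 counts in all 6 libraries. The PROLM7 row OS05G0329300 (15340717 to 15341339) had 0 counts in every mutant library, against 0, 1 and 1 in the wild-type libraries, and neither of these rows passed the filter on low counts.

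Glb1 (OS05G0499100, LOC_Os05g41970, chromosome 5, 24576939 to 24577725), the globulin of the storage vacuole, had the smallest fitted change of the tested rows. It was at 209, 2128 and 9065.5 normalized CPM in the mutant libraries, against 21875, 31619 and 25689.9 in the wild-type libraries. No mutant library reached the wild-type range, although mutant library 3 held 34.4% of the wild-type mean, against 8.06% in mutant library 2 and 0.791% in mutant library 1. The means were 3801 ± 4659 in the mutant and 26394.5 ± 4909.9 in wild type (SD, n = 3 each), and a log2 fold change of -2.80 (SE 1.21) missed the threshold (edgeR adjusted p = 0.11).

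Of the 6 rows tested, 1 was called lower and 0 higher, beside 15.4% of all tested features called lower and 15.8% called higher. At an unadjusted p under 0.05 all 6 were lower, beside 20.9% of all features. The lines did not overlap at 6 of 6, beside 23.8% of all features that lay lower in every mutant library. The median log2 fold change was -3.38 for the 6 rows and -3.63 for the 5 prolamins, beside 0.06 for all tested features. The number called depended on the test and on the libraries. DESeq2's Wald test called 5, all but PROLM20 (background 17.7%), and limma-voom called 4, all but PPROL 17D and PROLM20 (background 15.8%). With edgeR and 1 library left out, all 6 were called without mutant library 1 (background 14.1%) and without mutant library 3 (background 18.0%), and 1, PROLM7, was called without any 1 of the other 4 libraries (background 8.63% without mutant library 2, and 9.73%, 11.2% and 10.3% without wild-type libraries 1, 2 and 3). Limma on log2 FPKM called all 6 with a pseudocount of 1 (background 4.22%) or of 0.1 (background 4.02%). Total-count scaling left every row lower, at log2 fold changes of -4.33 for PROLM25, -3.96 for PROLM7, -2.74 for PPROL 17D, -2.19 for the 10 kDa prolamin, -2.14 for PROLM20 and -1.88 for Glb1, and called 4 of them (background 3.77%, beside 71.8% of all features called higher). With library totals taken without storage rows, an alternative chosen after seeing the data, 3 were called (background 6.99%).

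**Figure D2:**
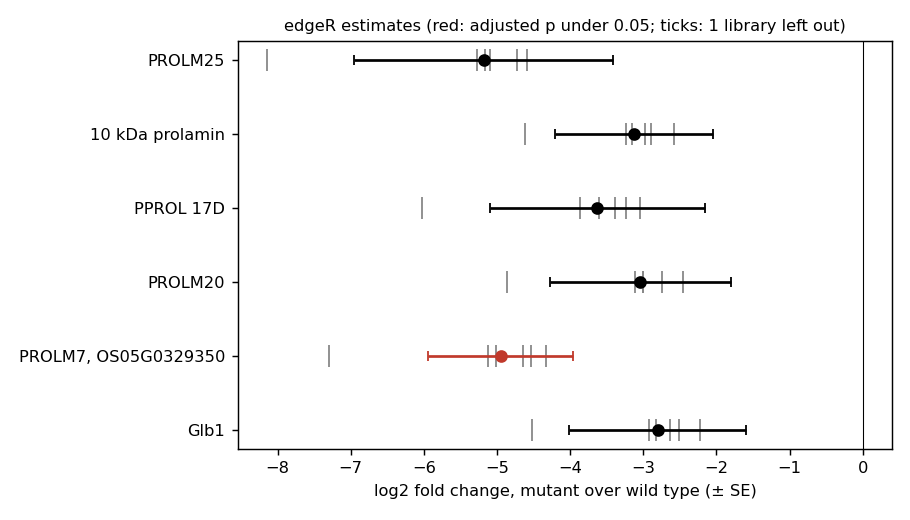
Log2 fold change, mutant over wild type, of the 6 tested rows in edgeR (points, with bars of 1 SE), with the estimates after leaving out 1 library as grey ticks. PROLM7 (red) is the only row with an adjusted p under 0.05, and the tick farthest left in each row is the fit without mutant library 3.

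Leaving out mutant library 3 also moved the size of each change by more than any other library did. Without it the log2 fold changes were -8.14 for PROLM25, -6.02 for PPROL 17D, -4.86 for PROLM20, -4.61 for the 10 kDa prolamin and -4.52 for Glb1. Without mutant library 1 the changes were smaller, at -4.59 for PROLM25 and -2.23 for Glb1.

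As a share of all counts, the summed prolamin rows took 0.0278%, 0.277% and 1.10% in the mutant libraries, against 3.46%, 4.46% and 3.96% in the wild-type libraries. Glb1 alone took 0.0393%, 0.334% and 1.05% in the mutant libraries, against 1.57%, 1.98% and 1.68% in the wild-type libraries. Shares need no scaling factor, and both were lower in every mutant library. For each the exact permutation p was 0.1 (two-sided), which is the lowest possible with 3 libraries a line (0.14 adjusted over the 7 share and ratio measures).

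Within the summed counts of the described prolamin rows, the shares of PROLM25 and the 10 kDa prolamin did not overlap between the lines. Such shares are tied, since a smaller share of 1 row raises the others. Rows without a description are outside this sum. PROLM25 made up 3.80%, 11.4% and 22.9% of the prolamin counts in the mutant libraries, against 52.1%, 44.8% and 48.3% in the wild-type libraries. The 10 kDa prolamin made up 81.1%, 56.5% and 36.8% in the mutant libraries, against 23.1%, 22.5% and 21.6% in the wild-type libraries. So PROLM25, the leading of these rows in wild-type seeds, had the smaller share in each mutant library, and the sulfur-rich 10 kDa prolamin the larger. The lines did not overlap for either (exact permutation p = 0.1 each, 0.2 adjusted over the 4 rows with at least 10 counts in every library). PPROL 17D held 14.0%, 29.1% and 37.8% in the mutant libraries, against 23.3%, 31.5% and 28.8% in the wild-type libraries (exact permutation p = 0.9, 0.9 adjusted). PROLM20 held 1.09%, 3.01% and 2.43% in the mutant libraries, against 1.46%, 1.16% and 1.36% in the wild-type libraries (exact permutation p = 0.4, 0.533 adjusted). For both of these shares the lines overlapped. For PROLM20 mutant libraries 2 and 3 lay above the wild-type range and mutant library 1 below it. The difference in its share was 1.39 percentage points without that library (exact permutation p = 0.1) and 0.434 without mutant library 2 (0.6), against 0.85 with all. For PPROL 17D it was 5.61 without mutant library 1 and -6.31 without mutant library 3, against -0.874 with all.

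**Figure D3:**
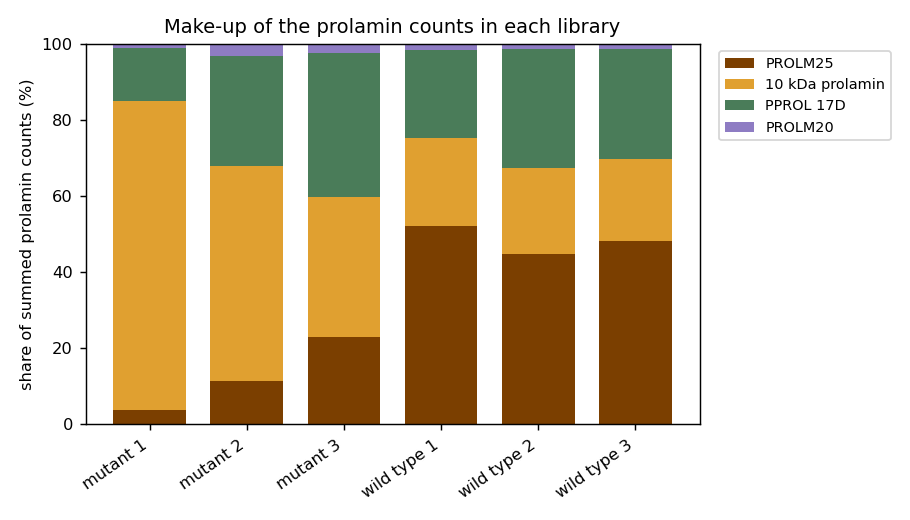
Share of the summed prolamin counts (%) held by each prolamin row in each library, mutant libraries at the left and wild-type libraries at the right. PROLM25 (brown) fills 44.8% to 52.1% of each wild-type bar and 3.80% to 22.9% of each mutant bar, and the 10 kDa prolamin (orange) fills 36.8% to 81.1% of each mutant bar. The PROLM7 rows are under 0.1% and are not drawn.

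Ratios of rows within a library show the same contrast without any scaling. PROLM25 had 0.0468, 0.201 and 0.623 counts per count of the 10 kDa prolamin in the mutant libraries, against 2.26, 1.99 and 2.24 in the wild-type libraries. Its ratio to Glb1 was 0.0269, 0.0943 and 0.240 in the mutant libraries, against 1.15, 1.01 and 1.14 in the wild-type libraries. PROLM25 was thus the more abundant partner of both pairs in wild type and the less abundant in every mutant library. The 10 kDa prolamin had 0.574, 0.468 and 0.385 counts per count of Glb1 in the mutant libraries, against 0.511, 0.507 and 0.509 in the wild-type libraries, and here the lines overlapped. Of the 10 pairs among PROLM25, the 10 kDa prolamin, PPROL 17D, PROLM20 and Glb1, 7 did not overlap, all pairs with PROLM25 among them. The pairs share the same rows, so they are not separate results, and no share over other pairs of features was taken. These pairs were examined after the values had been seen and are given without a test.

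Glb1 stood higher relative to the sum of the described prolamin rows in the mutant. The ratio was 1.41, 1.21 and 0.955 in the mutant libraries, against 0.452, 0.445 and 0.423 in the wild-type libraries. Mutant seeds had more than 1 count of Glb1 per count of these rows in libraries 1 and 2, and no wild-type library reached 0.5. The mean log2 ratio differed by 1.42 (exact permutation p = 0.1, 0.14 adjusted). With PROLM25 left out of the sum the difference was 0.66 (exact permutation p = 0.1), so it rested in large part on that row.

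Relative to the 8 glutelin rows, the described prolamin rows stood lower in the mutant. They had 0.0844, 0.0429 and 0.0579 counts per glutelin count in the mutant libraries, against 0.118, 0.129 and 0.129 in the wild-type libraries. The lines did not overlap, and the mean log2 ratio differed by -1.07 (exact permutation p = 0.1, 0.14 adjusted). Without PROLM25 it differed by -0.32 (exact permutation p = 0.4), so the mean difference rested in large part on PROLM25. Without that row mutant library 1 lay above every wild-type library, while the other mutant libraries still lay below them. Glb1 per glutelin count was 0.119, 0.0518 and 0.0553 in the mutant libraries, against 0.0533, 0.0574 and 0.0544 in the wild-type libraries. These overlapped, and mutant library 1 stood apart (log2 difference 0.34, exact permutation p = 0.8, and -0.04 without mutant library 1).

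**Figure D4:**
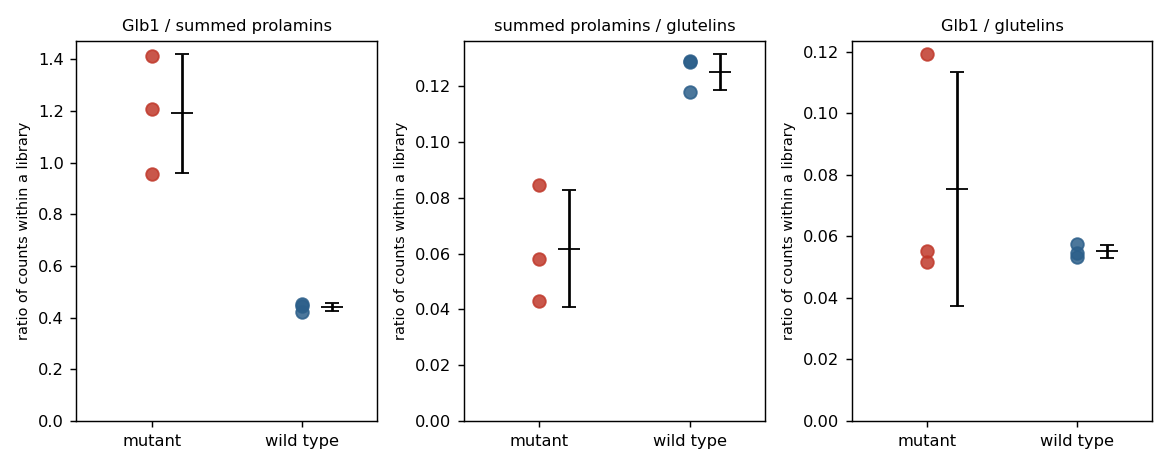
Ratios of summed counts within each library for Glb1 over prolamins, prolamins over glutelins and Glb1 over glutelins, with the mutant at the left and wild type at the right of each panel (points, libraries; horizontal mark and bar, mean and SD of 3). Mutant points lie above wild type in the first panel, from 0.955 to 1.41, and below it in the second, from 0.0429 to 0.0844, and the lines overlap in the third.

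A second comparison was made with the 6 seed allergen and trypsin inhibitor rows, small cysteine-rich seed proteins. Glb1 was at 1.76, 2.68 and 2.70 counts per count of these rows in the mutant libraries, against 0.589, 0.774 and 0.548 in the wild-type libraries. The lines did not overlap, with Glb1 higher relative to these rows in the mutant (log2 difference 1.89, exact permutation p = 0.1, 0.14 adjusted). The prolamins were at 1.24, 2.22 and 2.83 in the mutant libraries, against 1.30, 1.74 and 1.29 in the wild-type libraries, which overlapped (log2 difference 0.47, exact permutation p = 0.4, 0.467 adjusted). That difference was 0.81 without mutant library 1 (exact permutation p = 0.1) and 0.21 without mutant library 3 (0.7). Both ratios, and that of Glb1 to glutelins, were added after values had been seen.

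Levels of different genes are compared per length, as deposited FPKM (fragments scaled for length and library size). In the mutant the order by mean FPKM was Glb1 at 6024, the 10 kDa prolamin at 3387, PPROL 17D at 2396, PROLM25 at 1561, PROLM20 at 188 and PROLM7 at 1.98. The ranges of neighbours overlapped across libraries, but within each of the 3 mutant libraries every one of these rows stood above the next. In wild type it was PROLM25 at 31340 ± 1591, Glb1 at 22122 ± 2749.8, PPROL 17D at 16030.4 ± 4287, the 10 kDa prolamin at 15431 ± 1855, PROLM20 at 827 ± 25.03 and PROLM7 at 31.5 ± 9.66 (SD, n = 3). The range of PROLM25 lay above that of Glb1, and the range of the 10 kDa prolamin above that of PROLM20. The ranges of Glb1 and PPROL 17D overlapped, although Glb1 was higher within each of the 3 wild-type libraries. PPROL 17D was above the 10 kDa prolamin in 2 of 3, so these neighbours were not separated. By FPKM rank among all features, PROLM25 was at place 6859, 120 and 18 in the mutant libraries, against place 4, 6 and 4 in the wild-type libraries. Glb1 was at place 100, 9 and 7 in the mutant libraries, against place 8, 7 and 8 in the wild-type libraries, so that its place in mutant library 3 lay within the wild-type range. This was not particular to Glb1. PPROL 17D was at place 1967, 44 and 13 in the mutant libraries, against 16, 8 and 11 in the wild-type libraries. The 10 kDa prolamin was at 143, 13 and 10, against 11, 11 and 13. PROLM20 stayed outside its wild-type range, at 14702, 632 and 143, against 64, 58 and 62.

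The described genes whose profile over the 6 libraries was most like that of the summed prolamins were mostly other seed storage and inhibitor proteins. Likeness was the root-mean-square difference of centred log2 normalized CPM, among 2463 candidates with a description and a mean of at least 5 normalized CPM. The nearest was 17kDa alpha-amylase/trypsin inhibitor 1 (OS07G0216600) at 0.224, with 11.4, 152 and 763 normalized CPM in the mutant libraries, against 4826, 8501.5 and 6444 in the wild-type libraries. GLUA2, 17kDa alpha-amylase/trypsin inhibitor 2, GLUA1, GLUB4 and GLUB5 followed at 0.486 to 0.562. For Glb1 the nearest was Translocator protein homolog (OS05G0151200) at 0.307, a row of low level with 0.125, 1.56 and 4.42 normalized CPM in the mutant libraries, against 16.3, 21.9 and 21.9 in the wild-type libraries. GLUB2, both GLUB1-B rows, GLUA3 and the dehydrin RAB16B followed at 0.343 to 0.456. Among the 6 nearest, the prolamin list held 4 glutelins, 2 of type A and 2 of type B, and the Glb1 list 4, 1 of type A and 3 of type B. With 6 libraries of 2 lines, any gene that differs strongly between the lines and spreads alike over the mutant libraries scores as similar.

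Several rows beside the prolamin genes also lay lower in the mutant, and those named here were picked out after their values had been seen. Within 50 kb of the 8 rows, 44 other features were tested, of which 11 were called lower and 5 higher, beside 15.4% and 15.8% of all features, with a median log2 fold change of -0.20. Of the 7 tested neighbours of PROLM25, 0 were called. OS07G0206500, which starts 5000 bases from PROLM25 and has no description in the table, had 721, 14962 and 93536 counts in the mutant libraries, against 400889, 457580 and 555846 in the wild-type libraries. It had more counts than PROLM25 in every library, and its log2 fold change was -4.90 (edgeR adjusted p = 0.053). Around PROLM20, 3 of 5 tested neighbours fell, among them OS07G0219250, which starts 2006 bases before it (log2 fold change -4.50, edgeR adjusted p = 0.0062). That row had few counts, 3, 18 and 78 in the mutant libraries, against 244, 288 and 378 in the wild-type libraries. OS07G0219400, which starts 2006 bases after PROLM20, had 404, 8980 and 38463, against 62769, 92224 and 91998. Its log2 fold change of -3.60 did not pass (edgeR adjusted p = 0.074). All 3 tested neighbours of the PROLM7 rows fell, at log2 fold changes of -5.41 for OS05G0328800, -4.86 for OS05G0329700 and -4.77 for OS05G0329400, as did both tested neighbours of PPROL 17D, at -3.41 for OS12G0269100 and -4.10 for OS12G0269600. Of these named calls, that of OS07G0219250 passed with each library left out in turn, and each of the others was lost without at least 1 library, all of them but OS12G0269100 without mutant library 2 (edgeR adjusted p = 0.052 for OS05G0328800, 0.093 for OS05G0329700, 0.099 for OS05G0329400 and 0.069 for OS12G0269600) and OS12G0269100 without any 1 wild-type library (0.059 to 0.078). Without mutant library 3 the log2 fold changes were -6.40 for OS07G0219250, -7.95 for OS05G0328800, -7.57 for OS05G0329700, -7.37 for OS05G0329400 and -6.52 for OS12G0269600. Around the 10 kDa prolamin 4 of 14 tested neighbours rose and 1 fell, and around Glb1 1 of 13 rose and 2 fell. PROLM25 and PROLM20 lie 874 kb apart on chromosome 7, and Glb1 lies over 9 Mb from the PROLM7 rows of the same chromosome.

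Regulators of storage protein genes fell in part, relative to the typical gene. Rice prolamin promoters are bound by RPBF, a Dof factor that recognises the prolamin box, together with RISBZ1, a bZIP factor that binds the GCN4 motif. Of 15 regulators, 6 fell and 9 did not pass (median log2 fold change -0.79, beside 0.06 for all features), where 15.4% of all features were called lower and 15.8% higher. Scaling by total counts gave 2 that fell and 5 that rose, beside 3.77% of all features called lower and 71.8% higher. At an unadjusted p under 0.05 edgeR gave 10 lower and 1 higher, beside 20.9% of all features lower. DESeq2's Wald test and limma-voom called 8 and 7 lower and 0 higher, beside 17.7% and 15.8% of all features lower. Those with the smallest adjusted p were NF-YB1, an endosperm subunit of nuclear factor Y (log2 fold change -1.16, edgeR adjusted p = 0.003), the bZIP factors RISBZ5 (-2.65, 0.0062) and RISBZ4 (-0.79, 0.011), and NAC129, a NAC factor (-1.46, 0.0066). With total-count scaling RISBZ5 was at -1.61, NAC129 at -0.34, NF-YB1 at 0.00 and RISBZ4 at 0.37, and RISBZ4 did not pass without mutant library 2 (edgeR adjusted p = 0.057). RISBZ5 was at -3.37 without mutant library 3.

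RPBF and RISBZ1 were picked out for their known roles after their values had been seen. RPBF was at 66.6, 139 and 364.5 normalized CPM in the mutant libraries, against 665, 778 and 578 in the wild-type libraries. RISBZ1 was at 14.8, 46.6 and 128 normalized CPM in the mutant libraries, against 200.3, 190.0 and 236 in the wild-type libraries. Both lay lower in every mutant library, with mutant library 3 nearest to wild type. The same held for the prolamins, NF-YB1 and the starch enzymes GBSSI and AGPL2, so it was not particular to these regulators. A link between them and the prolamins was not tested. The log2 fold change of RPBF was -1.83 (edgeR adjusted p = 0.038) and that of RISBZ1 -1.73 (0.073), and with total-count scaling they were -0.81 and -0.74, neither of which passed. RPBF missed the threshold without mutant library 2 (edgeR adjusted p = 0.13) and with any 1 wild-type library left out (0.077 to 0.1), and it was at -2.74 without mutant library 3. RISBZ1 passed without mutant library 1 (edgeR adjusted p = 0.035) and without mutant library 3 (0.0028).

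Of 8 ER folding factors, 3 rose, 0 fell and 5 did not pass, beside 15.8% of all features called higher. Their median log2 fold change was 0.86, beside 0.06 for all features. With total-count scaling all 8 rose, beside 71.8% of all features. The lines overlapped for BIP1, PDIL2-3 and ERO1. At an unadjusted p under 0.05 edgeR gave 4 higher and 0 lower, as did the adjusted calls of DESeq2's Wald test and limma-voom. For these calls the share of all features higher was not taken. Their summed level was 3943, 5558 and 7314 normalized CPM in the mutant libraries, against 2545, 3089 and 2612 in the wild-type libraries, with no overlap. The protein disulfide isomerase PDIL1-4 was at 456.5, 796.5 and 897 normalized CPM in the mutant libraries, against 142, 206 and 145 in the wild-type libraries (log2 fold change 2.12, edgeR adjusted p = 0.0026). Calreticulin, a calcium-binding chaperone, was at 842.5, 583 and 426 normalized CPM in the mutant libraries, against 173, 168 and 189.5 in the wild-type libraries (log2 fold change 1.80, edgeR adjusted p = 0.0032). Mutant library 3, with the most prolamin RNA, had the highest PDIL1-4 and the lowest calreticulin of the mutant libraries. Endoplasmin, an ER chaperone, rose by less (log2 fold change 0.84, edgeR adjusted p = 0.01) but missed the threshold with wild-type library 1 (0.058) or 3 (0.054) left out. PDIL1-1, the isomerase that acts on proglutelins, had a log2 fold change of 0.96 that did not pass (edgeR adjusted p = 0.096), and 1.22 (0.013) without mutant library 1.

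For traffic from the ER to the storage vacuole, the route of Glb1, 0 of 7 genes rose, 2 fell and 5 did not pass, beside 15.8% of all features called higher and 15.4% lower (median log2 fold change -0.16, beside 0.06 for all features), and with total-count scaling 6 rose and 0 fell, beside 71.8% of all features called higher. At an unadjusted p under 0.05 edgeR gave 1 higher and 2 lower, beside 20.9% of all features lower. DESeq2's Wald test and limma-voom each called 0 higher and 2 lower, beside 17.7% and 15.8% of all features lower. RAB5A, a small GTPase of this route, had a log2 fold change of -0.86 (edgeR adjusted p = 0.016) and GPA3, a post-Golgi traffic protein, of -0.56 (0.012), against 0.31 and 0.65 with total-count scaling. Neither passed without mutant library 2 (edgeR adjusted p = 0.058 for RAB5A and 0.059 for GPA3), nor RAB5A without wild-type library 2 (0.051). SAR1A and SAR1B, GTPases of ER exit, were at 0.43 (edgeR adjusted p = 0.099) and 0.68 (0.12) and did not pass, although SAR1B did without mutant library 1 (0.018). SAR1C, on the same list, lay lower in every mutant library, at a log2 fold change of -0.42 that did not pass (edgeR adjusted p = 0.13).

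**Figure D5:**
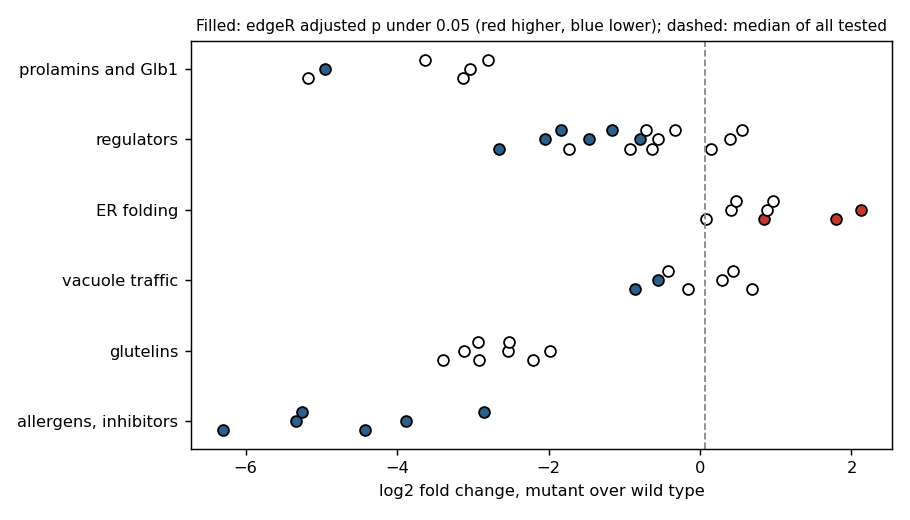
Log2 fold change, mutant over wild type with TMM scaling, of each tested gene in 6 groups; filled points have an edgeR adjusted p under 0.05 (red higher, blue lower) and the dashed line is the median of all tested features, 0.06. Prolamins and Glb1 lie far left of that line with the glutelins and the allergens and inhibitors, while ER folding factors lie right of it. With total-count scaling the median of all features is 1.27, and 5 regulators and 6 traffic genes are called higher, beside 71.8% of all features.

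The other storage families were measured in the same fit. The 8 glutelin rows had a median log2 fold change of -2.72, with 0 called by edgeR (background 15.4% lower). Of them 0 were called at an unadjusted p under 0.05 (background 20.9%) and 0 with total-count scaling (3.77%). DESeq2's Wald test called 7 lower (background 17.7%) and limma-voom 1 (15.8%). Glutelins took 0.330%, 6.45% and 18.99% of all counts in the mutant libraries, against 29.4%, 34.5% and 30.8% in the wild-type libraries. All 6 allergen and inhibitor rows fell, with a median of -4.83 (background 15.4%). But 1 of 6 passed without mutant library 2 (background 8.63%), and 3 of 6 without wild-type library 1 (9.73%) or 3 (10.3%).

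Markers of some seed tissues moved with the storage rows. The labelled tissue is developing seeds, and markers of starchy endosperm, of embryo and aleurone and of green pericarp were all present. Of 6 starchy endosperm markers, enzymes of starch synthesis, 0 rose, 2 fell and 4 did not pass. Of all tested features 15.8% were called higher and 15.4% lower. With total-count scaling 2 markers fell and 1 rose, beside 3.77% of all features called lower and 71.8% higher. At an unadjusted p under 0.05 edgeR gave 4 lower and 0 higher, beside 20.9% of all features lower. DESeq2's Wald test and limma-voom called 5 and 4 lower and 0 higher, beside 17.7% and 15.8% of all features lower. The summed level of these markers was 3524 to 8514 normalized CPM in the mutant and 14705 to 15455 in wild type. ISA1, an isoamylase (log2 fold change -1.79, edgeR adjusted p = 0.0053), and GBSSI, the amylose-making starch synthase (-2.58, 0.011), were the ones that fell. GBSSI did not pass without mutant library 2 (edgeR adjusted p = 0.063) and was at -3.21 without mutant library 3. AGPS2 (log2 fold change -1.27, edgeR adjusted p = 0.076) and BEIIb (-0.82, 0.084) came next and did not pass. AGPL2, named because the sample titles carry gif2, a symbol also used for this subunit of ADP-glucose pyrophosphorylase, had a log2 fold change of -0.74 that did not pass (edgeR adjusted p = 0.21) and 0.38 with total-count scaling, and whether it is the differing locus is not given by the labels. All 7 embryo and aleurone markers fell, beside 15.4% of all features. Without mutant library 2, wild-type library 1 or wild-type library 3, 4 of them did, beside 8.63%, 9.73% and 10.3%. Those with the smallest adjusted p were RAB16C (log2 fold change -3.33, edgeR adjusted p = 0.0043), RAB16D (-3.89, 0.0065), OLE16 (-2.32, 0.0088) and EM1 (-3.37, 0.01). The summed level of the 7 was 214 to 1061 normalized CPM in the mutant and 2961 to 3881 in wild type. The 4 green pericarp markers, chlorophyll a-b binding proteins, had a median log2 fold change of 0.00. Their summed level was 616 to 1168 normalized CPM in the mutant and 757 to 983 in wild type. Of them 0 were called by edgeR, DESeq2's Wald test or limma-voom, and 0 at an unadjusted p under 0.05. With total-count scaling 4 were called higher, beside 71.8% of all features. No marker was at 0 in all libraries, and the part of tissue make-up in the prolamin and Glb1 levels was not tested.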

How the data were processed

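Whole seeds of 3 mutant and 3 wild-type libraries were grouped by the genotype and line labels. The authors deposited 1 table with read counts and FPKM per feature, per the file headers, and coordinates are those of the table. The submitters' processing notes list Bowtie 0.12.2. No source used here gives the counting tool, its use of strand, the annotation or the genome build. The deposited counts, whole numbers with no scaling, were used for the main test; the deposited FPKM served for levels between genes.

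Counts kept by filterByExpr (22937 features, 6 of the 8 rows described) were fitted with edgeR 4.0.16 under R 4.3.3 (glmQLFit and glmQLFTest after estimateDisp, TMM, line as the only term). SE is |log2 fold change| / sqrt(F). Shares and ratios per library were compared by two-sided exact permutation, with Benjamini-Hochberg adjustment in scipy 1.17.1. The script was tested on simulated data. No pair of libraries agreed within sampling noise (chi-square per gene within a line 10.9 to 366). Other tools were limma 3.58.1, DESeq2 1.42.0, matplotlib 3.10.9, pandas 2.3.3, numpy 2.4.6 and Python 3.11.15.

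The members and lists were chosen with earlier results of these data known. Regulators, folding, traffic and tissue markers were listed by locus (43 of 43 matched), glutelins, allergens, inhibitors and chlorophyll-binding proteins by words in the description. No other row was annotated as prolamin by symbol or name. Named genes were all 8 rows, the 6 nearest described features of each profile, up to 4 members of each locus list with the smallest adjusted p, and AGPL2. RPBF, RISBZ1, BIP1, PDIL2-3, ERO1, SAR1C and the neighbouring rows named lie outside this rule and were chosen after their values were seen. The 50 kb neighbourhoods, pair ratios, ratios to allergens and of Glb1 to glutelins, and total-count scaling without storage rows were added after values were seen.

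Alternatives were a replicate block, DESeq2 size factors, total-count scaling, no filter on low counts, a filter at a mean of 5 CPM, limma-voom, the DESeq2 Wald test, limma on log2(FPKM + 1) and log2(FPKM + 0.1) of the deposited values where mean FPKM reached 1, a threshold of 0.01, summed FPKM, the sum without PROLM25, and each library left out.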

Additional observations from a re-analysis of the deposited data

How the results depend on the processing

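Every tested prolamin row and Glb1 kept its direction in all alternatives run. The number called lower, 1 in the main test, was 2 with the replicate block (background 13.3%), 4 with total-count scaling (3.77%), 3 with total-count scaling without storage rows (6.99%), 5 with DESeq2's Wald test (17.7%), 4 with limma-voom (15.8%), 6 with limma on log2(FPKM + 1) (background 4.22%), 6 with limma on log2(FPKM + 0.1) (background 4.02%), and 1 to 6 with 1 library left out. Same-numbered libraries did not deviate together (r 0.0678, -0.043 and -0.0251), so the block shares only a number. With total-count scaling the regulators had 2 lower and 5 higher, ER folding 8 higher, vacuole traffic 0 lower and 6 higher, starchy endosperm 1 higher and green pericarp 4 higher. Of all features, 3.77% were called lower and 71.8% higher with that scaling. With 1 library left out the calls were 3 to 10 lower and 0 to 1 higher for regulators, 2 to 5 higher for ER folding, 0 to 3 lower and 0 to 1 higher for vacuole traffic, 0 to 3 lower for glutelins, 1 to 6 for allergens and inhibitors, 1 to 4 for starchy endosperm, 4 to 7 for embryo and aleurone and 0 to 1 for green pericarp. Of all features, 8.63% to 18.0% were called lower with 1 library left out. The share of all features called higher was not taken for these fits, so the counts called higher have no background. The log2 ratio of Glb1 to glutelins ranged from -0.0407 (without mutant library 1) to 0.561, and the difference in the share of PPROL 17D from -6.31 to 5.61 percentage points (5.61 without mutant library 1, 0.942 without wild-type library 2, -0.874 with all). The causes were not tested. With 3 libraries a line, exact tests cannot fall below 0.1, and reads that the PROLM7 rows may share limit what a row shows.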
